A study of Homo sapiens with 20 samples.

Results

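The SR and hnRNP splicing factors, their CLK kinases and the proteins that read the 3′ splice site were followed in the myeloma cell line MM1.S as 51 genes of the 19593 counted. Members were the protein-coding genes whose symbols match SRSF with a number, HNRNP with a letter from A to U, or CLK1 to CLK4, with TRA2A, TRA2B, PTBP1, SRRM1, SRRM2, U2AF1, U2AF2 and SF3B1 added by name. They comprised 12 SR proteins, 4 SR-related proteins (TRA2A, TRA2B, SRRM1, SRRM2), 4 CLK kinases, 28 hnRNP proteins with PTBP1 among them, and 3 proteins of 3′ splice site recognition. The rule itself uses symbols only. All cells carried a wild-type genotype by their label. Each group held 3 libraries of cells given 10 nM dCBP-30, which degrades the acetyltransferases CBP and p300, or DMSO alone, for 2, 6 or 24 h, with separate DMSO groups at the 3 times. A 4-thiouridine (4sU) pulse of 1 h ended at harvest, and 2 more libraries had no 4sU. Nothing in the labels says that the 3 libraries of a group came from separate cultures, so the p-values measure the spread between libraries, which may be technical.

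SR proteins bind exonic enhancers through RNA recognition motifs and recruit the spliceosome through their arginine-serine-rich domains. Members of the hnRNP family bind nascent RNA and often oppose them, PTBP1 by covering pyrimidine tracts. CLK kinases phosphorylate the SR domains and release SR proteins from nuclear speckles, while U2AF1, U2AF2 and SF3B1 read the 3′ splice site and the branch point. Many of these genes control their own messages by poison exons or retained introns. SF3B1 and U2AF1 are known from recurrent mutations in blood cancers.

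In SLAM-seq, alkylated 4sU is copied as if it were C, so T>C conversions mark RNA made in the pulse. A background of T>C reads also occurs without 4sU. T>C reads, total reads and labelled share were compared for each gene, the last being the percent of its reads that are T>C reads. Levels are in RPM, the reads of a gene scaled to a common library total after TMM factors. They are 3′-end reads, so a gene's length does not enter them, and levels were compared only within a gene. A log2 difference is dCBP-30 minus DMSO, and for the labelled share it is the log2 of an odds ratio. Adjusted p values come from edgeR (quasi-likelihood test), with the Benjamini-Hochberg method applied to all genes tested. A change in T>C or total reads was called at an adjusted p under 0.05 and a fold above 2, and a change in labelled share at the adjusted p alone.

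Between 12439665 and 18727385 reads per library fell on genes, and the 10 plasma cell markers checked lay between 99.1 and 1787 RPM under DMSO, against 0 to 7.19 RPM for 12 markers of T cells, myeloid cells, epithelium and fibroblasts. Summed over the members, T>C reads made up 8.13 ± 0.376% of reads under DMSO at 2 h (SD, n = 3) and 10.1 ± 0.224% at 24 h, against 1.07% without 4sU. With dCBP-30 the members' share was 8.13 ± 0.253% at 2 h, 6.22 ± 0.320% at 6 h (DMSO, 8.60 ± 0.315%) and 7.39 ± 0.393% at 24 h (SD, n = 3 each). Over all genes the mean share was 5.54% at 2 h (DMSO, 6.08%), 4.98% at 6 h (DMSO, 6.38%) and 6.38% at 24 h (DMSO, 8.31%). A T>C read of a member held 1.48 ± 0.0224 conversions with dCBP-30 at 24 h and 2.65 ± 0.0359 under DMSO (SD, n = 3). Over all genes these values were 1.47 ± 0.0432 and 2.48 ± 0.0253, while at 2 and 6 h the group means of all genes lay between 2.17 and 2.24. The 24 h groups therefore differed in how densely new RNA was marked, and the part of this in the T>C results at 24 h was not tested. Fewer cells and less RNA per cell cannot be told apart in libraries of whole cultures.

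Of the 51 members, 45 passed the filter for T>C reads and labelled share and 46 that for total reads. HNRNPCL1, HNRNPCL2, HNRNPCL3 and HNRNPCL4 had no read in any of the 20 libraries, which allows at most 0.00968 RPM each by the 3 counts that a count of 0 allows over all reads. That bounds the counted reads and not the expression, since the counted 3′ UTR of HNRNPCL1 and of HNRNPCL2 spans only 31 bases. CLK2 held 54 reads and SRSF12 104 reads over all libraries, and only SRSF12 was tested, in total reads. Some members cannot be counted cleanly. Reads listed as multimapping made up 99.7% of those of U2AF1, which has a near-identical copy in the GRCh38 assembly, 55.1% for HNRNPK, 49.2% for HNRNPA3, 44.05% for HNRNPC, 30.6% for SRSF3, 28.0% for HNRNPA1L3 and 26.6% for HNRNPA1. No other member exceeded 19.2%. The reads of HNRNPUL2-BSCL2, a readthrough gene, lie on exons of BSCL2 and are not read here as HNRNPUL2. In 4 members (SRSF2, SRSF9, HNRNPA3, HNRNPAB) the counted 3′ UTR overlaps a protein-coding gene on the other strand, and whether strand was used in counting is not given in the sources used here. SRSF8 had T>C reads without 4sU in 12.8% of its reads, the highest background of the members. For 19 members the transcript with most reads is annotated as a nonsense-mediated decay transcript, whose 3′ UTR takes in several ordinary exons.

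At 2 h few of these genes had changed in T>C reads by the call. HNRNPLL alone of 45 was called lower (2.22%), against 7.14% of all 10083 genes, and none was called higher, against 1.66%. At 6 h 14 members were called lower, 31.1% against 17.1% of all genes, and at 24 h 18 members, 40% against 31.2%. None was called higher at 6 h (2.36% of all genes) or at 24 h (2.18%). The counts of 0 members higher held in DESeq2 as well, and at an unadjusted p under 0.05 edgeR gave 4 members higher at 2 h, 0 at 6 h and 0 at 24 h. At 2 h 10 members were lower at that unadjusted p. The median member stood at a log2 difference of -0.09 at 2 h, -0.75 at 6 h and -0.80 at 24 h, beside 0.05, -0.27 and -0.69 for all genes. At 6 h the members thus lay below the typical gene, and at 24 h close to it. Of the 14 members called at 6 h, 9 were also called at 24 h (64.3% of the first list and 50% of the second): SRSF1, SRSF2, SRSF9, HNRNPA1, HNRNPA3, HNRNPAB, HNRNPD, HNRNPDL and HNRNPR. HNRNPF, HNRNPH2, HNRNPK, SRSF7 and SRSF8 were called at 6 h and not at 24 h, though the difference between 6 and 24 h was not tested. The HNRNPH2 groups overlapped at 6 h, and its call was lost with reads summed over transcripts.

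**Figure D1:**
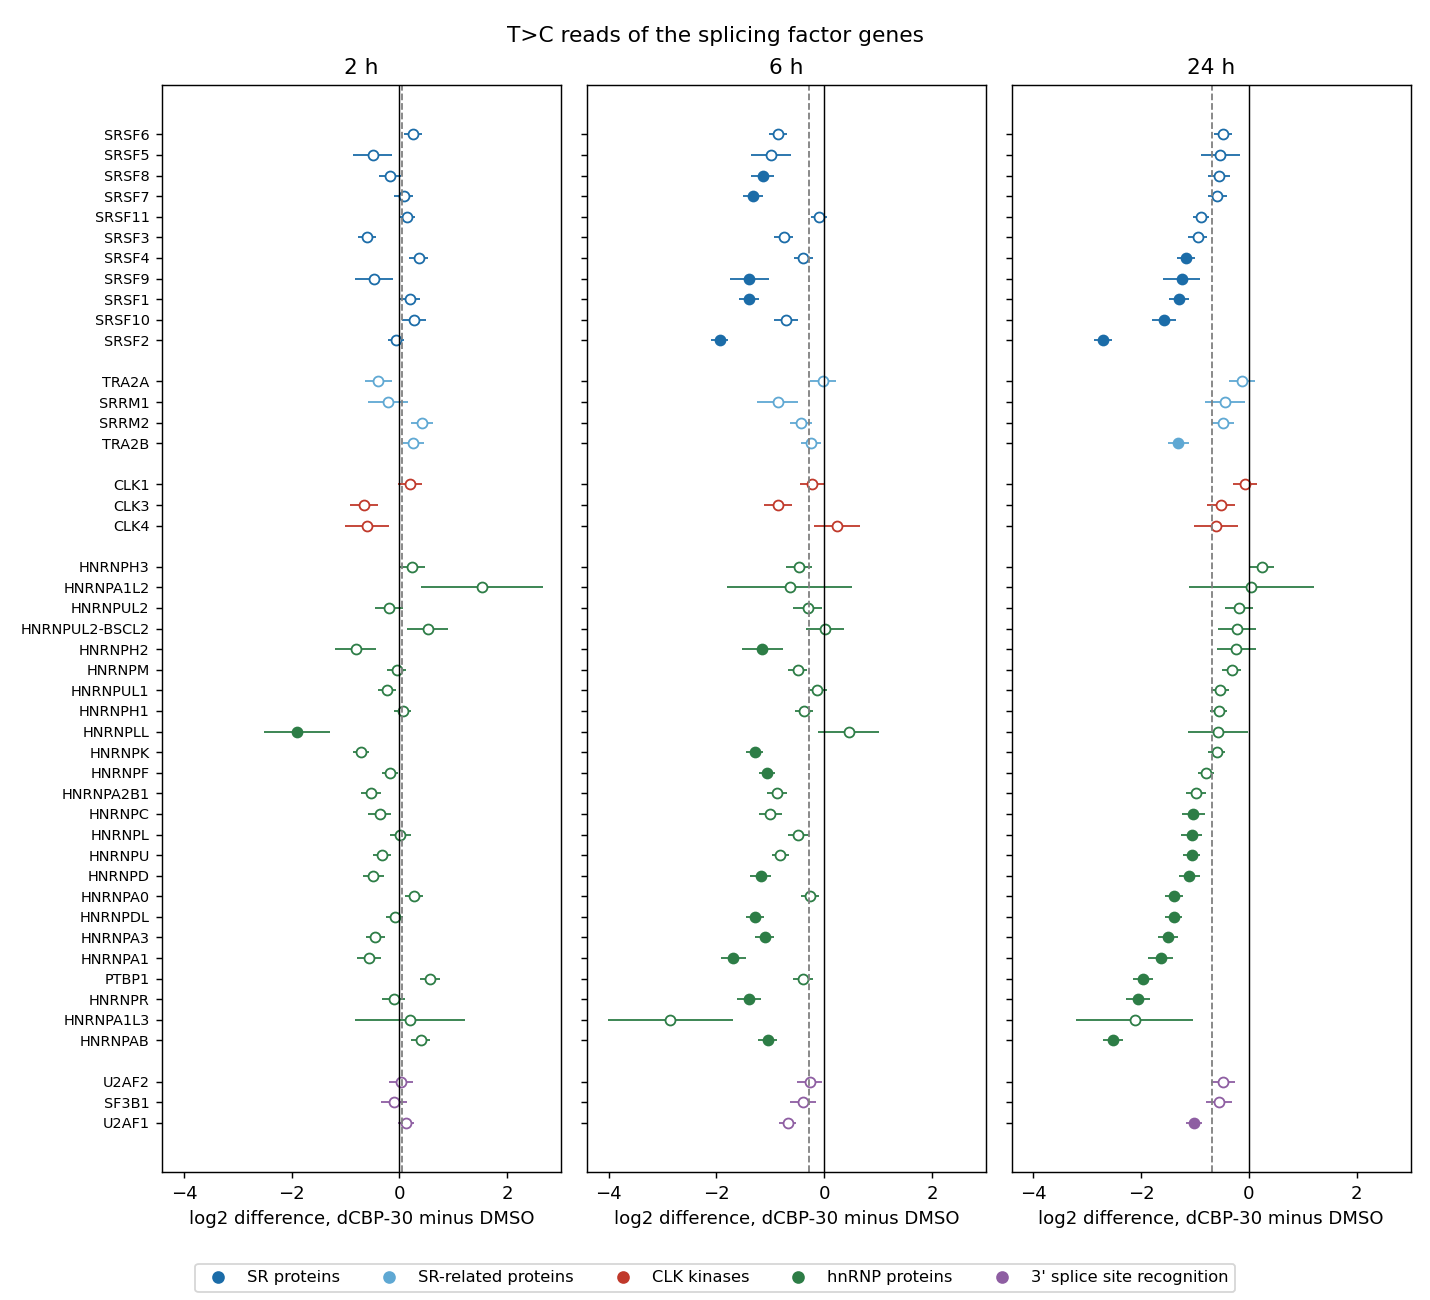
Log2 difference in T>C reads (dCBP-30 minus DMSO, horizontal axis) of the 45 tested members at 2, 6 and 24 h, grouped by role and ordered by the value at 24 h. Points are fitted values, bars the SE, filled points passed the call, and the dashed line is the median of all 10083 genes (0.05, -0.27 and -0.69). SRSF2 and HNRNPAB lie farthest left among the called members at 24 h, and the 3 CLK kinases have no filled point.

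How many members pass depends on the scale. When libraries were scaled by their T>C reads in place of total reads, the median of all genes moved from -0.27 to 0.04 at 6 h and from -0.69 to -0.04 at 24 h. On that scale 6 members were called lower at 6 h (SRSF1, SRSF2, SRSF7, SRSF9, HNRNPA1, HNRNPR) and 4 at 24 h (SRSF2, HNRNPAB, HNRNPR, PTBP1), and 23 of 45 members lay below 0 at 24 h, against 43 of 45 on the main scale. Library sizes from total reads without TMM factors gave 6 members lower at either time, at 24 h the same 4 with HNRNPA1 and SRSF10. SRSF2 and HNRNPR were thus called lower at 6 and 24 h on each of the 3 scales, and HNRNPAB and PTBP1 at 24 h. The share of all genes called on the other scales was not counted. Scaled by T>C reads, the median member stood at -0.44 at 6 h and -0.16 at 24 h. Without TMM factors it stood at -0.43 and -0.27, beside 0.045 and -0.16 for all genes.

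Windows upstream of 4 of these genes are shown because HNRNPAB and PTBP1 fell in T>C and total reads at 24 h, while CLK1 and CLK4 held more total reads then. Each is the 250 bases before the RefSeq start lying farthest upstream, 5′ to 3′ on the gene's strand, in GRCh38.p14: HNRNPAB at chr5:178204283-178204532, plus strand, PTBP1 at chr19:797202-797451, plus strand, CLK1 at chr2:200864659-200864908, minus strand and CLK4 at chr5:178627051-178627300, minus strand. Capitals mark matches on either strand to CACGTG (an E-box), TGACGTCA (a cAMP response element), CCAAT (the CCAAT box), GGGCGG (a GC box) or CCGGAAGT (an ETS motif). No 2 of them share letters in these windows.
HNRNPAB: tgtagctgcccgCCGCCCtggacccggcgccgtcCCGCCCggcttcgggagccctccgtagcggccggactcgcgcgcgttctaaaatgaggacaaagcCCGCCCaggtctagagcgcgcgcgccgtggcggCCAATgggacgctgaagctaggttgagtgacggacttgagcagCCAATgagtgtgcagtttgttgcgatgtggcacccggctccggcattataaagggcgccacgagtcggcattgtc
PTBP1: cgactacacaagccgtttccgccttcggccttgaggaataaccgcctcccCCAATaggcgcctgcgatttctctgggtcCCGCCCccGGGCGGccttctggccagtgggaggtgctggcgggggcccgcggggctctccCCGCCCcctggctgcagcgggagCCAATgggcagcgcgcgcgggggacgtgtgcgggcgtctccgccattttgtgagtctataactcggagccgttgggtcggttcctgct
CLK1: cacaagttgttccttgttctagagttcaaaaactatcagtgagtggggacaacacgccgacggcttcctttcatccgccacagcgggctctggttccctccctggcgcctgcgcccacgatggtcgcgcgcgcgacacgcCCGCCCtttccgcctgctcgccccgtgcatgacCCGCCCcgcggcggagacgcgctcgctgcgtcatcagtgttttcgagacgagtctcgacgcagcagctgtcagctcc
CLK4: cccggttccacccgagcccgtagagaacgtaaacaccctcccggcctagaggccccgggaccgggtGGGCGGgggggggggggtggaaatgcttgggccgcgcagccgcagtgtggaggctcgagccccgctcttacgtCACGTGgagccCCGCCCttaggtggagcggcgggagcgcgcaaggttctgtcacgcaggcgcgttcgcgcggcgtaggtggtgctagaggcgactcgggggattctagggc

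HNRNPAB and PTBP1 each held 2 CCAAT and 3 GGGCGG matches, CLK1 held 2 GGGCGG matches, and CLK4 held 2 with 1 CACGTG. RefSeq gave such a window for 46 members and for 15138 genes of the files. CACGTG was found in 9 of the 46 (19.6%) against 7.89% of all, CCAAT in 22 (47.8%) against 34.8%, GGGCGG in 29 (63%) against 57.2%, CCGGAAGT in 4 (8.7%) against 5.25%, and TGACGTCA in none against 2.36%. Among members with a window, CACGTG was found in 3 of 16 called lower in T>C reads at 24 h and in 5 of 25 tested and not called, CCAAT in 9 of 16 and 11 of 25, GGGCGG in 12 of 16 and 15 of 25, and CCGGAAGT in 2 of 16 and 2 of 25. These matches describe letters in a window and no more.

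Among the SR proteins, 5 of 11 tested were called lower at 6 h and 5 of 11 at 24 h, with medians of -0.98 and -0.95. SRSF2, which binds exonic enhancers and shapes its own message by splicing, changed most. Its T>C reads were 91.3, 108 and 109.9 under DMSO and 87.9, 105 and 105 with dCBP-30 at 2 h (RPM, libraries in rising order), so the groups overlapped (-0.06 ± 0.15 (SE), adjusted p = 0.89). At 6 h they were 120.0, 131 and 132 under DMSO and 29.1, 29.9 and 41.1 with dCBP-30 (-1.94 ± 0.15 (SE), adjusted p = 4.3e-16). At 24 h they were 111, 127 and 143 under DMSO and 17.3, 18.5 and 22.5 with dCBP-30 (-2.71 ± 0.16 (SE), adjusted p = 1.7e-21). The highest dCBP-30 library stayed under the lowest DMSO library at 6 and 24 h.

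SRSF1, the founding SR protein, was called lower at 6 and 24 h. Its T>C reads were 27.5, 27.7 and 34.4 under DMSO and 10.7, 11.6 and 11.7 with dCBP-30 at 6 h (-1.40 ± 0.19 (SE), adjusted p = 1.5e-08). At 24 h they were 31.6, 41.6 and 51.3 under DMSO and 14.3, 17.5 and 19.3 with dCBP-30 (-1.29 ± 0.19 (SE), adjusted p = 5.1e-08), and at 2 h they did not pass the test (0.19 ± 0.18 (SE), adjusted p = 0.62). The groups did not overlap at 6 or 24 h. SRSF10 (-1.57 ± 0.22 (SE), adjusted p = 3.7e-08), SRSF4 (-1.16 ± 0.17 (SE), adjusted p = 1.3e-07) and SRSF9 (-1.24 ± 0.34 (SE), adjusted p = 0.0024) were the others called at 24 h. On its best protein-coding transcript SRSF4 fell short of the fold at 24 h (-0.90, adjusted p = 4.3e-05). SRSF7 (-1.32 ± 0.18 (SE), adjusted p = 3e-08), SRSF8 (-1.14 ± 0.21 (SE), adjusted p = 2e-05) and SRSF9 (-1.39 ± 0.36 (SE), adjusted p = 0.0019) were called at 6 h. SRSF6, SRSF7 and SRSF8 lay between -0.58 and -0.48 at 24 h, past the adjusted p and short of the fold.

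SRSF3, the smallest SR protein, was with HNRNPK and HNRNPLL one of 3 members below DMSO at 2 h past the adjusted p, on any fold. Its T>C reads were 39.4, 44.4 and 45.7 under DMSO and 24.2, 30.2 and 30.6 with dCBP-30 at 2 h (-0.61 ± 0.17 (SE), adjusted p = 0.01). They were 32.0, 35.5 and 36.4 under DMSO and 18.8, 20.8 and 22.2 with dCBP-30 at 6 h (-0.75 ± 0.17 (SE), adjusted p = 0.00046) and 31.2, 36.0 and 41.7 under DMSO and 17.0, 19.5 and 19.9 with dCBP-30 at 24 h (-0.95 ± 0.17 (SE), adjusted p = 6.5e-06). The groups did not overlap at any time, and the difference stayed short of a 2-fold change at each. At 24 h it passed that limit with reads summed over transcripts (-1.01) and without DMSO replicate 1 (-1.05), with 30.6% of its reads listed as multimapping.

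Of 24 hnRNP genes tested, 1 was called lower at 2 h, 9 at 6 h and 11 at 24 h, with medians of -0.14, -0.85 and -1.01. HNRNPAB, an RNA-binding protein of the A/B class, and PTBP1, the polypyrimidine tract repressor, first stood above DMSO and then far below it. HNRNPAB T>C reads were 33.1, 39.0 and 44.3 under DMSO and 46.6, 52.7 and 54.1 with dCBP-30 at 2 h (0.40 ± 0.17 (SE), adjusted p = 0.15). At 6 h they were 39.8, 40.0 and 45.7 under DMSO and 19.0, 20.3 and 21.4 with dCBP-30 (-1.05 ± 0.18 (SE), adjusted p = 3.1e-06). At 24 h they were 60.9, 62.9 and 63.3 under DMSO and 7.03, 11.8 and 13.9 with dCBP-30 (-2.51 ± 0.19 (SE), adjusted p = 1.8e-17). All dCBP-30 libraries were above the DMSO libraries at 2 h, without passing the test, and all were below at 6 and 24 h.

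PTBP1 T>C reads were 31.9, 42.6 and 42.6 under DMSO and 46.2, 61.3 and 66.0 with dCBP-30 at 2 h (0.57 ± 0.18 (SE), adjusted p = 0.031), the only member above DMSO at 2 h by the adjusted p. They were 37.2, 40.7 and 50.7 under DMSO and 24.5, 31.6 and 41.9 with dCBP-30 at 6 h (-0.39 ± 0.18 (SE), adjusted p = 0.12), with overlap between the groups. At 24 h they were 55.4, 57.0 and 75.1 under DMSO and 14.0, 14.7 and 19.2 with dCBP-30 (-1.97 ± 0.19 (SE), adjusted p = 3.1e-13). The DMSO libraries were all below dCBP-30 at 2 h and all above it at 24 h.

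HNRNPR, a spliceosome-associated hnRNP, came after SRSF2 and HNRNPAB at 24 h among members with 20 or more T>C reads. Its T>C reads were 21.7, 24.1 and 28.3 under DMSO and 4.43, 6.01 and 7.31 with dCBP-30 at 24 h (-2.06 ± 0.22 (SE), adjusted p = 2.1e-11). At 6 h they were 16.7, 17.4 and 18.9 under DMSO and 6.27, 6.83 and 7.17 with dCBP-30 (-1.39 ± 0.22 (SE), adjusted p = 9.3e-07). No dCBP-30 library reached the lowest DMSO library at 6 or 24 h. HNRNPA1, a repressor of splice site choice, had T>C reads of 19.0, 20.3 and 22.8 under DMSO and 4.66, 5.94 and 8.68 with dCBP-30 at 6 h (-1.69 ± 0.23 (SE), adjusted p = 2.4e-08) and -1.64 on the log2 scale at 24 h (adjusted p = 2.4e-08). Its groups were apart at both times, and 26.6% of its reads were listed as multimapping. The other hnRNP genes called at 24 h ran from HNRNPA3 (-1.50) through HNRNPDL, HNRNPA0, HNRNPD, HNRNPU and HNRNPL to HNRNPC (-1.03). On their best protein-coding transcripts HNRNPD (-0.98, adjusted p = 6.7e-05) and HNRNPU (-0.65, adjusted p = 0.0022) fell short of the fold, HNRNPU also with reads summed over transcripts. HNRNPA1L3, an HNRNPA1-like copy, lay at -2.86 ± 1.16 (SE), adjusted p = 0.064 at 6 h, on 0 to 5 T>C reads per dCBP-30 library, and DESeq2 called it lower at 6 and 24 h.

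A different set led at 2 h. HNRNPLL, which controls the variable exons of PTPRC in lymphocytes, had T>C reads of 1.13, 2.61 and 3.69 under DMSO and 0.2504, 0.726 and 1.04 with dCBP-30 at 2 h. That is 4 to 12 reads against 16 to 48, and no dCBP-30 library reached the lowest DMSO library (-1.90 ± 0.61 (SE), adjusted p = 0.029). Leaving out any 1 of 4 libraries lost this call, with adjusted p of 0.067 without DMSO replicate 3, 0.069 without dCBP-30 replicate 2, 0.18 without dCBP-30 replicate 3 and 0.19 without DMSO replicate 1. At 6 h HNRNPLL stood at 0.814, 1.20 and 1.68 under DMSO and 1.499, 1.72 and 1.86 with dCBP-30 at 6 h (0.45 ± 0.57 (SE), adjusted p = 0.64), the highest of the members with 20 or more T>C reads.

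HNRNPK, a poly(C)-binding hnRNP, had T>C reads of 72.6, 75.3 and 100.1 under DMSO and 49.5, 49.8 and 52.3 with dCBP-30 at 2 h (-0.71 ± 0.15 (SE), adjusted p = 0.00048). Its groups were apart at 2 h, and it was called at 2 h once the background without 4sU, 2.10% of its reads, was subtracted (-1.10, adjusted p = 6.5e-05). It was also called at 6 h (-1.29 ± 0.16 (SE), adjusted p = 7.2e-10) but had 55.1% of its reads listed as multimapping. HNRNPH2, which binds G-rich runs, had 3.66, 4.23 and 11.2 under DMSO and 2.50, 4.07 and 4.22 with dCBP-30 at 2 h (-0.81 ± 0.38 (SE), adjusted p = 0.19), where 1 high DMSO library set the mean. Without that library, replicate 1, its log2 difference was -0.12. HNRNPH3 had the highest value of the members with 20 or more T>C reads at 24 h, with 10.4, 10.8 and 13.3 under DMSO and 12.4, 13.8 and 14.6 with dCBP-30 at 24 h and overlapping groups (0.24 ± 0.23 (SE), adjusted p = 0.44). HNRNPUL2-BSCL2 had 2.33, 2.54 and 4.03 under DMSO and 4.07, 4.16 and 4.57 with dCBP-30 at 2 h (0.52 ± 0.38 (SE), adjusted p = 0.47) and 3.49, 5.73 and 6.24 under DMSO and 4.60, 5.21 and 5.83 with dCBP-30 at 6 h (0.02 ± 0.36 (SE), adjusted p = 0.98). Its sign at 6 h turned when either DMSO replicate 2 or dCBP-30 replicate 2 was left out.

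**Figure D2:**
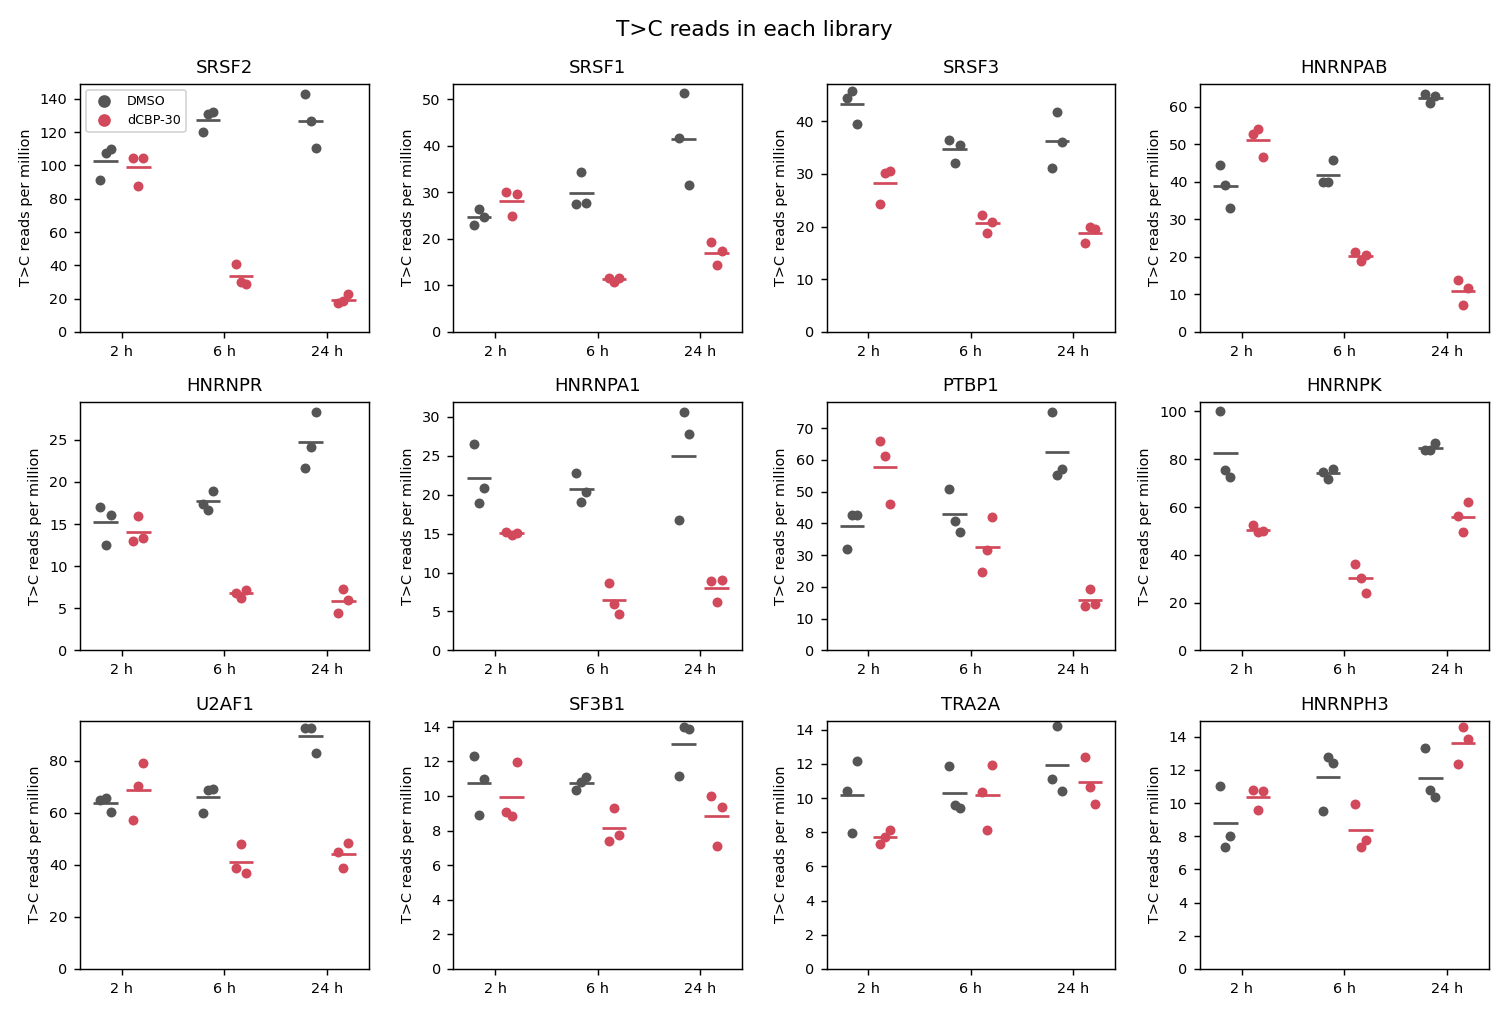
T>C reads in RPM (vertical axis, from 0) of 12 members in each library at 2, 6 and 24 h (horizontal axis), with DMSO in grey and dCBP-30 in red. Points are libraries and lines the mean of 3. SRSF2 falls from 111, 127 and 143 under DMSO to 17.3, 18.5 and 22.5 at 24 h, PTBP1 crosses from above DMSO at 2 h to below it at 24 h, and TRA2A and HNRNPH3 overlap at 24 h.

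Of the SR-related proteins, TRA2B alone was called, at 24 h (-1.31 ± 0.19 (SE), adjusted p = 6.5e-08). Its paralog TRA2A, like it a sequence-specific splicing activator, had T>C reads of 10.4, 11.1 and 14.2 under DMSO and 9.66, 10.7 and 12.4 with dCBP-30 at 24 h (-0.13 ± 0.24 (SE), adjusted p = 0.72), with overlapping groups. That value lay above 0 when libraries were scaled by T>C reads (0.52) or without TMM factors (0.39). SRRM2, a scaffold of nuclear speckles, had 16.1, 16.1 and 18.8 under DMSO and 20.3, 22.3 and 25.3 with dCBP-30 at 2 h (0.41 ± 0.20 (SE), adjusted p = 0.22). Its groups did not overlap at 2 h, which did not carry it past the test. In 3′ splice site recognition 1 of 3 members was called, U2AF1, the subunit of U2AF that reads the terminal AG. Its T>C reads were 60.1, 64.9 and 65.7 under DMSO and 57.1, 70.2 and 79.2 with dCBP-30 at 2 h (0.12 ± 0.15 (SE), adjusted p = 0.74). They were 59.9, 68.6 and 69.2 under DMSO and 36.9, 38.6 and 48.0 with dCBP-30 at 6 h (-0.68 ± 0.15 (SE), adjusted p = 0.00037) and 82.9, 92.5 and 92.6 under DMSO and 38.6, 45.0 and 48.4 with dCBP-30 at 24 h (-1.02 ± 0.15 (SE), adjusted p = 1.2e-07). The groups were apart at 6 and 24 h, but the fold at 24 h sits on the limit: it fell short without any 1 of 3 libraries (-0.94 without dCBP-30 replicate 2, -0.995 without DMSO replicate 1 or 2) and under both other scalings (-0.38 scaled by T>C reads, -0.50 without TMM factors), and 99.7% of the reads are multimapping. SF3B1, the branch point protein of the U2 snRNP, had T>C reads of 8.89, 10.98 and 12.3 under DMSO and 8.84, 9.06 and 11.96 with dCBP-30 at 2 h (-0.10 ± 0.24 (SE), adjusted p = 0.87). It had 10.3, 10.8 and 11.1 under DMSO and 7.42, 7.72 and 9.32 with dCBP-30 at 6 h (-0.40 ± 0.24 (SE), adjusted p = 0.26) and 11.1, 13.8 and 14.0 under DMSO and 7.09, 9.39 and 10.01 with dCBP-30 at 24 h (-0.56 ± 0.24 (SE), adjusted p = 0.056). None of these passed the test, although the groups did not overlap at 6 and 24 h. U2AF2, the large U2AF subunit, lay at -0.47 ± 0.22 (SE), adjusted p = 0.083 at 24 h.

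In total reads, the pool of old and new message, fewer members passed the 2-fold limit. By the adjusted p alone 21 of 46 were lower at 6 h against 24 of 45 in T>C reads. The share of all genes at that limit was not counted. No member was called at 2 h, lower (1.25% of all 12267 genes) or higher (0.457%), by edgeR or DESeq2, with 8 lower and 1 higher at an unadjusted p under 0.05. At 6 h 2 of 46 members were called lower (4.35%, against 8.67% of all genes) and none higher (7.47% of all genes, 2 members at an unadjusted p under 0.05 and 0 by DESeq2). At 24 h 10 were called lower (21.7%, against 16.1%) and 1 higher (2.17%, against 15%). The median member stood at -0.32 at 24 h beside 0.05 for all genes. Without TMM factors the median of all genes became 0.35 at 6 h and 0.58 at 24 h, and that of the members 0.08 and 0.22, so the members' median turns positive there and stays below that of all genes. Without TMM factors 3 members were called lower at 24 h (HNRNPAB, PTBP1 and SRSF2) and 4 higher (CLK1, CLK4, HNRNPA1L2 and HNRNPLL), so the balance of calls turns. HNRNPA1L2 rests on few reads, 2, 21 and 22 under DMSO and 36, 44 and 44 with dCBP-30 at 24 h.

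HNRNPAB total reads were 521, 538 and 541 under DMSO and 116, 118 and 136 with dCBP-30 at 24 h (-2.11 ± 0.10 (SE), adjusted p = 4.4e-15), while at 6 h they were 471, 526 and 526 under DMSO and 468, 499 and 522 with dCBP-30 and overlapped (-0.03 ± 0.10 (SE), adjusted p = 0.81). SRSF2 total reads were 624, 662 and 742 under DMSO and 158, 161 and 190.2 with dCBP-30 at 24 h (-1.996 ± 0.10 (SE), adjusted p = 2e-14). No dCBP-30 library came near a DMSO library in either gene at 24 h. PTBP1 (-1.58 ± 0.14 (SE), adjusted p = 3.6e-10), HNRNPDL (-1.24 ± 0.11 (SE), adjusted p = 3.1e-10), HNRNPR (-1.23 ± 0.10 (SE), adjusted p = 1.5e-10), TRA2B (-1.18 ± 0.15 (SE), adjusted p = 1.6e-07), SRSF10 (-1.11 ± 0.13 (SE), adjusted p = 7.1e-08) and HNRNPD (-1.08 ± 0.10 (SE), adjusted p = 1.6e-09) were also called. These 8 members were all called lower in T>C reads of the same libraries too (80% of the 10 and 44.4% of the 18). U2AF1 lay just short of the fold (-0.99 ± 0.13 (SE), adjusted p = 3.2e-07). HNRNPU and HNRNPL, called lower in T>C reads at 24 h, had total reads at -0.03 and -0.16, neither past the test.

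The remaining pair called lower in total reads, SRSF3 and SRSF7, was not called in T>C reads at 24 h. SRSF3 total reads were 195, 220.2 and 245 under DMSO and 68.3, 102 and 118 with dCBP-30 at 6 h (-1.20 ± 0.16 (SE), adjusted p = 2.2e-06), and -1.11 on the log2 scale at 24 h. SRSF7, a zinc-knuckle SR protein, had 139.6, 152 and 158 under DMSO and 47.4, 64.7 and 72.1 with dCBP-30 at 6 h (-1.29 ± 0.16 (SE), adjusted p = 2.7e-07) and 134, 169 and 193 under DMSO and 73.5, 76.9 and 77.7 with dCBP-30 at 24 h (-1.12 ± 0.15 (SE), adjusted p = 9.2e-07). They were the only members called in total reads at 6 h, where their groups were apart, and neither call held at 6 h without TMM factors. At 24 h their T>C reads stood at -0.95 and -0.58, and the labelled share of SRSF3 did not pass the test (0.19 ± 0.24 (SE), adjusted p = 0.56).

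**Figure D3:**
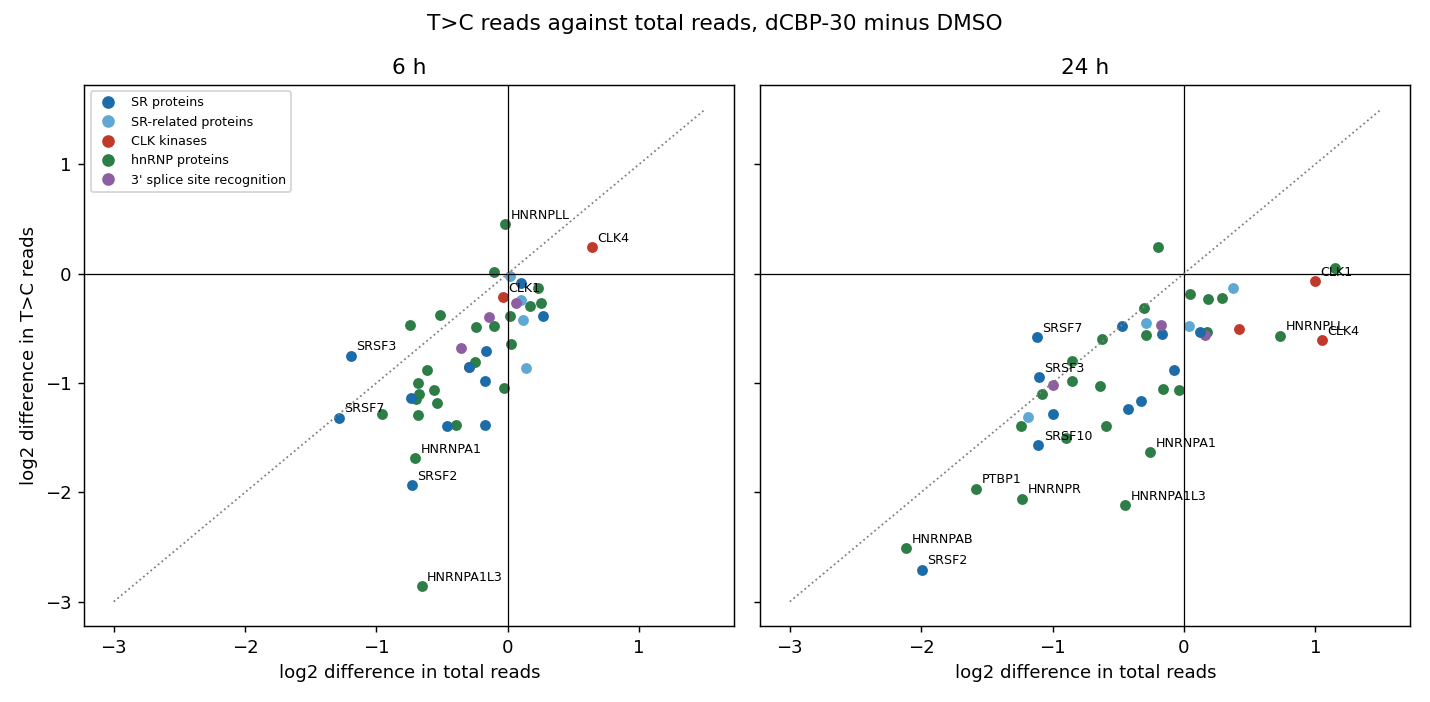
Log2 difference in T>C reads (vertical axis) against that in total reads (horizontal axis), dCBP-30 minus DMSO, for the 45 members tested in both, at 6 h and at 24 h, coloured by role. The dotted line marks equal values. SRSF2 (-1.996 in total and -2.71 in T>C reads) and HNRNPAB (-2.11 and -2.51) lie lowest at 24 h, SRSF3 and SRSF7 lie above the line there, and CLK1 and CLK4 lie at the right, beside HNRNPA1L2 (1.15 in total reads), which was called higher without TMM factors and not on the main scale.

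CLK1 and CLK4 went the other way in total reads. CLK1 total reads were 18.1, 18.9 and 25.2 under DMSO and 41.0, 41.2 and 42.2 with dCBP-30 at 24 h (0.9996 ± 0.21 (SE), adjusted p = 0.00023), just short of a 2-fold change. CLK4 total reads were 4.79, 5.19 and 6.53 under DMSO and 9.98, 11.7 and 12.4 with dCBP-30 at 24 h (1.05 ± 0.25 (SE), adjusted p = 0.00096), the one member called higher. In both genes the lowest dCBP-30 library exceeded the highest DMSO library. The CLK4 call was lost without DMSO replicate 1 (0.96) or dCBP-30 replicate 1 (0.98), and CLK1 passed the fold without any 1 of 3 libraries, by DESeq2 and without TMM factors. CLK3 (0.42 ± 0.13 (SE), adjusted p = 0.0074), HNRNPLL (0.73 ± 0.20 (SE), adjusted p = 0.0027), TRA2A (0.38 ± 0.13 (SE), adjusted p = 0.015) and HNRNPUL2-BSCL2 (0.29 ± 0.11 (SE), adjusted p = 0.028) lay above DMSO past the adjusted p but short of a 2-fold change.

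In T>C reads the CLK kinases had no call, CLK3 coming nearest at 6 h (-0.86 ± 0.26 (SE), adjusted p = 0.011). CLK1 T>C reads were 15.5, 16.4 and 21.8 under DMSO and 13.1, 16.1 and 21.9 with dCBP-30 at 24 h (-0.07 ± 0.23 (SE), adjusted p = 0.84), with overlap, and its sign turned under both other scalings (0.56 scaled by T>C reads, 0.45 without TMM factors) and without replicate 2 of either group. CLK4 had 1.56, 1.83 and 2.08 under DMSO and 1.39, 2.51 and 2.57 with dCBP-30 at 6 h (0.24 ± 0.43 (SE), adjusted p = 0.75), again with overlap. On the best protein-coding transcripts, an alternative chosen after the data were seen, CLK3 was called lower at 6 h (-1.002, adjusted p = 0.003) and CLK4 higher, with a difference of 1.53 (adjusted p = 0.025), on 45 T>C reads under DMSO against 153 over 3 libraries each.

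The labelled share, which compares T>C reads with the other reads of the same gene and library, does not depend on the scaling of libraries. Under DMSO at 2 h it ran over the 43 members with 20 or more T>C reads from 1.27% to 77.7%, with a median of 8.91%, beside 9.93% for all 6874 genes with as many T>C reads. Neighbours in this order overlapped in 38 of 42 pairs. The lowest were HNRNPUL2-BSCL2 (0.948, 1.15 and 1.70%) and SRSF9 (2.69, 3.11 and 3.29%). The highest were CLK4 (46.96, 52.8 and 57.9%) and CLK1 (73.3, 79.1 and 80.7%), which stood apart from each other and from SRSF8 (23.0, 24.9 and 26.4%). CLK1 lay above the 99th percentile of those genes, 60.0%, and CLK4 below it. Without 4sU the share was 0.226% for CLK1, 0% for CLK4, 0.324% for HNRNPUL2-BSCL2, 1.23% for SRSF9 and 12.8% for SRSF8. The places of SRSF8, SRSF9 and HNRNPUL2-BSCL2 in this order are therefore partly background.

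With dCBP-30, 1 member was called lower in labelled share at 2 h (2.22%, against 5.13% of all genes), HNRNPK (-0.43 ± 0.13 (SE), adjusted p = 0.046). That count was 0 by limma, with reads summed over transcripts, and without replicate 1 or 3 of either group, and 2 without DMSO replicate 2. At 6 h 14 were called lower (31.1%, against 6.86%), and at 24 h 16 (35.6%, against 25.6%). None was called higher at 2 h (1% of all genes) or at 6 h (0.208%), with 1 member at an unadjusted p under 0.05 at each and 0 by limma at both, and 1 was at 24 h (2.22%, against 0.208%). The median member stood at -0.52 at 6 h (all genes, -0.34) and at -0.53 at 24 h (all genes, -0.79). The share call has no fold limit, so genes with many reads pass it more readily. Genes with like numbers of reads were not compared. The count at 6 h depended on the test, with 6 members by limma on the log2 odds, and ran from 9 to 13 with 1 library left out, the 9 being without dCBP-30 replicate 2 or DMSO replicate 3. With the replicate number as a block, 0 members were called lower at 2 h, 0 at 6 h and 9 at 24 h. SRSF2 fell most at 6 h among the members called, from 16.6, 18.4 and 19.6% to 6.72, 6.99 and 10.1% (-1.39 ± 0.16 (SE), adjusted p = 1.8e-06). SRSF9 (-1.23 ± 0.28 (SE), adjusted p = 0.0072), HNRNPAB (-1.08 ± 0.19 (SE), adjusted p = 0.00044), HNRNPR (-1.06 ± 0.21 (SE), adjusted p = 0.0017) and HNRNPA1 (-1.02 ± 0.20 (SE), adjusted p = 0.0015) were next. Of the 14 members, 8 were called at 24 h too (57.1% of the first list and 50% of the second).

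At 24 h all 3 CLK kinases tested were called lower in labelled share. CLK1 went from 82.3, 86.3 and 90.7% under DMSO to 31.9, 39.1 and 52.0% (-3.24 ± 0.43 (SE), adjusted p = 9.7e-06). CLK4 went from 57.5, 71.6 and 93.3% to 19.4, 24.9 and 28.5% (-3.36 ± 0.81 (SE), adjusted p = 0.0044), and CLK3 changed by -1.13 ± 0.31 (SE), adjusted p = 0.0094. The CLK4 value was -2.53 without DMSO replicate 3 and -4.11 without DMSO replicate 2, and was called in both. The CLK1 and CLK4 groups were far apart, and their differences in odds were the 2 largest of the members with 20 or more T>C reads. Their T>C reads had not passed a test at 24 h, while their total reads were higher and held more reads without T>C. CLK4 T>C reads were 2.98, 3.43 and 6.09 under DMSO and 2.41, 2.84 and 2.91 with dCBP-30 at 24 h (RPM, log2 difference -0.61), without overlap. T>C reads held fewer conversions with dCBP-30 at 24 h, and the part of this in these shares was not tested. On the best protein-coding transcript the pooled CLK1 share was 90.0% under DMSO and 42.3% with dCBP-30, and that of CLK4 64.3% and 21.7%.

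SRSF7 was the one member called higher at 24 h, from 16.3, 16.5 and 17.7% to 21.0, 24.3 and 27.7% (0.67 ± 0.23 (SE), adjusted p = 0.034), with no overlap. The call was lost by limma (adjusted p = 0.058) and when any 1 library other than dCBP-30 replicate 2 was left out (0.073 without dCBP-30 replicate 1, 0.12 without dCBP-30 replicate 3, and 0.064, 0.089 and 0.092 without DMSO replicates 1, 2 and 3). HNRNPH3 came next in that direction, with 9.66, 9.79 and 13.9 under DMSO and 13.9, 15.2 and 15.6 with dCBP-30 at 24 h (percent) and no call (0.50 ± 0.26 (SE), adjusted p = 0.14). SRSF3, whose total reads fell as those of SRSF7 did, had a share of 13.1, 16.1 and 18.7 under DMSO and 18.4, 18.9 and 30.4 with dCBP-30 at 6 h (percent), without a call (0.59 ± 0.24 (SE), adjusted p = 0.15). HNRNPU (-1.10 ± 0.14 (SE), adjusted p = 5.8e-06), HNRNPA1 (-1.41 ± 0.19 (SE), adjusted p = 1.4e-05) and HNRNPL (-1.04 ± 0.19 (SE), adjusted p = 0.00051) showed the largest falls of the hnRNP genes called at 24 h, and SRSF4 (-0.94 ± 0.19 (SE), adjusted p = 0.0013) and SRSF11 (-0.89 ± 0.13 (SE), adjusted p = 4.8e-05) those of the SR proteins. SF3B1 was called as well (-0.82 ± 0.28 (SE), adjusted p = 0.033). Of the 8 members called lower in both T>C and total reads at 24 h, SRSF2 (-0.83, adjusted p = 0.00059) and HNRNPR (-0.91, adjusted p = 0.0031) were also called lower in share. HNRNPAB, PTBP1, HNRNPD, HNRNPDL, SRSF10 and TRA2B were not (values from -0.57 to -0.04). PTBP1 (adjusted p = 0.051) and HNRNPAB (adjusted p = 0.061) missed the call narrowly.

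**Figure D4:**
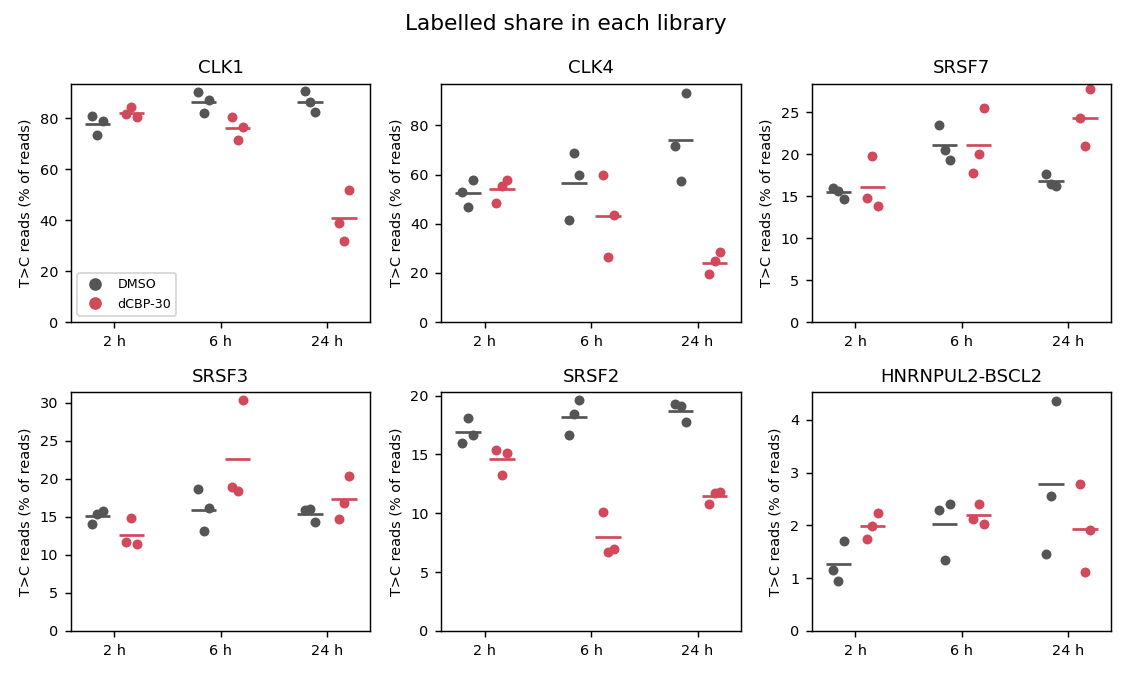
Labelled share (T>C reads as a percent of reads, vertical axis from 0) of 6 members in each library at 2, 6 and 24 h, with DMSO in grey and dCBP-30 in red. Points are libraries and lines the mean of 3. CLK1 and CLK4 drop at 24 h, and SRSF7 lies above DMSO at 24 h. SRSF2 lies below DMSO at all 3 times, with no call at 2 h (edgeR, adjusted p = 0.47).

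Whether the change in T>C reads differed between times was tested directly. Against 2 h, the change at 6 h was lower in 8 members (17.8%, against 6.63% of all genes) and higher in none (0.615%, 1 member at an unadjusted p under 0.05). At 24 h it was lower in 15 (33.3%, against 21.6%) and higher in none (2.58%, and 0 members at an unadjusted p under 0.05). Both tests use the 2 h libraries. SRSF2, HNRNPAB, HNRNPR, SRSF1, HNRNPDL and HNRNPA1 were in both sets, and PTBP1, SRSF10, HNRNPA0, TRA2B and SRSF4 were among those at 24 h only. No CLK kinase was in either.

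Other parts of the splicing machinery were read from lists of general knowledge. Of 73 spliceosome proteins 67 were tested, and 0, 11 and 32 were called lower in T>C reads at 2, 6 and 24 h, beside 7.14%, 17.1% and 31.2% of all genes, with 1 higher at 2 h, the helicase DHX38 (1.06, adjusted p = 0.0074). Their median at 24 h was -1.05, running from LSM4, a ring subunit that binds U6 snRNA (-3.10, adjusted p = 4.5e-13), to SNRNP48 of the minor spliceosome (0.38, adjusted p = 0.42). Of 51 other RNA-binding splicing regulators, all tested, 1, 7 and 20 were called lower, the median at 24 h being -0.89. The highest value among them at 24 h was that of RBM4 (0.74, adjusted p = 0.033), short of a 2-fold change. Of 18 kinases and methyltransferases that act on splicing factors 16 were tested, and 0, 4 and 7 were called lower, the median at 24 h being -1.31. PRMT3, an arginine methyltransferase, was lowest (-3.48, adjusted p = 0.0015) and DYRK1B, a kinase of the CLK relatives, highest (1.97, adjusted p = 0.27). In total reads at 24 h, 20 of 68 spliceosome proteins, 1 of 51 regulators and 6 of 16 enzymes were called lower, beside 16.1% of all genes. DYRK1B was the one gene of these lists called higher there (3.25, adjusted p = 1.7e-06).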

How the data were processed

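MM1.S SLAM-seq libraries were analysed, 18 labelled with 4sU and 2 without. Per the labels, 3′-end libraries were sequenced as single-end reads. The authors trimmed the reads with TrimGalore, ran Slamdunk on 3′ UTRs of hg38 and deposited raw counts without normalization, giving for each transcript its reads, those with T>C, the conversions and the covered T. DESeq is named in the submitters' processing notes. Multimapping reads were to be removed, yet a deposited column lists them, so its exact meaning is uncertain. Transcripts of a gene can list the same reads where their counted 3′ UTRs overlap, and their counts differ where these differ. Each gene was represented by the GENCODE release 44 transcript with most reads over the 20 libraries. Of 97466 rows, 91.4% matched.

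edgeR 4.0.16 (robust quasi-likelihood test, R 4.3.3) modelled the 18 libraries with 4sU by group means, taking library sizes from total reads and TMM factors and filterByExpr (minimum count 10). The labelled share was tested as T>C against other reads within each library. Alternatives were other scalings, filters and transcripts, limma 3.58.1, DESeq2 1.42.0, a fit of each time alone, subtraction of the background without 4sU, the replicate number as a block, and each library left out in turn. Python 3.11.15 read the promoters. The tests were tried on simulated data with known changes. Libraries of a group were no copies of each other (chi-square per degree of freedom 8.35 or more). The members, the gene lists and the rule for named genes were chosen with earlier results of these data known. Values in every library are given for the 3 lowest and 3 highest members in T>C reads at each time, the 2 lowest and 2 highest in total reads at 24 h, in change of labelled share at 24 h and in labelled share under DMSO at 2 h, counting members whose higher group averaged 20 or more T>C reads, and for U2AF1, SF3B1, SRSF3 and PTBP1. Further members were named because they were called.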

Additional observations from a re-analysis of the deposited data

Results flagged for a closer look

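The change in T>C reads differed between times in several members by the test of the difference itself (edgeR, log2 difference at the later time minus that at 2 h ± SE). At 6 h these were SRSF2 (-1.88 ± 0.21, adjusted p = 1.9e-09), SRSF1 (-1.59 ± 0.26, adjusted p = 1.3e-05), HNRNPAB (-1.44 ± 0.25, adjusted p = 2.8e-05), SRSF7 (-1.40 ± 0.26, adjusted p = 7.7e-05), HNRNPR (-1.28 ± 0.31, adjusted p = 0.0035), HNRNPDL (-1.20 ± 0.23, adjusted p = 0.00014), HNRNPA1 (-1.13 ± 0.32, adjusted p = 0.016) and SRSF6 (-1.11 ± 0.24, adjusted p = 0.00075). At 24 h they were HNRNPAB (-2.91 ± 0.25, adjusted p = 4e-14), SRSF2 (-2.65 ± 0.22, adjusted p = 3.6e-15), PTBP1 (-2.53 ± 0.26, adjusted p = 1.5e-11), HNRNPR (-1.95 ± 0.31, adjusted p = 1.3e-06), SRSF10 (-1.84 ± 0.31, adjusted p = 4.5e-06), HNRNPA0 (-1.66 ± 0.24, adjusted p = 1.4e-07), TRA2B (-1.57 ± 0.27, adjusted p = 5.1e-06) and SRSF4 (-1.52 ± 0.25, adjusted p = 1.8e-06). Further members at 24 h were SRSF1 (-1.48 ± 0.26, adjusted p = 1.1e-05), HNRNPDL (-1.31 ± 0.23, adjusted p = 7.9e-06), U2AF1 (-1.14 ± 0.21, adjusted p = 3.5e-05), HNRNPA1 (-1.08 ± 0.32, adjusted p = 0.0077), HNRNPL (-1.07 ± 0.27, adjusted p = 0.0018), HNRNPA3 (-1.05 ± 0.25, adjusted p = 0.0011) and SRSF11 (-1.02 ± 0.21, adjusted p = 0.00012). All lay lower at the later time, both tests use the 2 h libraries, and U2AF1, HNRNPA1 and HNRNPA3 carry the multimapping reads described above. Conversions per T>C read were 1.47 with dCBP-30 at 24 h and 2.48 under DMSO, and their part in the differences at 24 h was not tested.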

How the results depend on the processing

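Members called lower in T>C reads at 6 h numbered 14 on the main scale, 6 scaled by T>C reads and 6 without TMM factors, and at 24 h 18, 4 and 6. Shares of all genes called were counted under the main settings only. Differences from 2 h scaled by T>C reads numbered 5 at 6 h and 6 at 24 h. Without TMM factors total reads gave 0 lower at 6 h, while at 24 h 3 members were lower and 4 were higher. Without a fold limit 3, 24 and 29 members were lower in T>C reads at 2, 6 and 24 h and 1 was higher at 2 h, and in total reads 1, 21 and 23 were lower, 1 was higher at 6 h and 6 were higher at 24 h. Background subtraction gave 2 lower in T>C reads at 2 h, and DESeq2 2 higher in total reads at 24 h. The labelled share by limma gave 0 lower at 2 h, 6 lower at 6 h and 0 higher at 24 h, and reads summed over transcripts 0 lower at 2 h. Added after the data were seen, the best protein-coding transcript gave 1 member higher in T>C and in total reads at 6 h (CLK4), and leaving out members with over 20% multimapping reads and HNRNPUL2-BSCL2 gave 1 lower in total reads at 6 h.

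Same-numbered libraries did not deviate together (correlations of T>C reads from -0.051 to 0.016, of total reads from -0.19 to 0.045), so the numbers do not pair them. The replicate block gave 0 member lower in T>C reads at 2 h, 2 higher in total reads at 24 h, and in labelled share 0, 0 and 9 lower at 2, 6 and 24 h and 0 higher at 24 h. With 1 library left out, members lower in T>C reads ran from 0 to 1 at 2 h, 14 to 16 at 6 h and 14 to 19 at 24 h, in total reads from 2 to 3 at 6 h and 9 to 12 at 24 h with 0 to 2 higher, in labelled share from 0 to 2, 9 to 13 and 13 to 18 with 0 to 1 higher at 24 h, and differences from 2 h from 8 to 10 at 6 h and 11 to 15 at 24 h. Signs turned for SF3B1 at 24 h scaled by T>C reads (0.085) and at 2 h with 1 library left out (-0.26 to 0.0059, above 0 without DMSO replicate 1), CLK1 at 24 h (0.56 scaled by T>C reads, 0.45 without TMM factors, -0.30 to 0.095 with 1 library left out, above 0 without replicate 2 of either group), TRA2A at 24 h (0.52, 0.39, and -0.23 to 0.016, above 0 without DMSO replicate 2) and HNRNPUL2-BSCL2 at 6 h (-0.20 to 0.18, below 0 without replicate 2 of either group). The causes were not tested. HNRNPLL, CLK4, HNRNPA1L2 and HNRNPA1L3 have few T>C reads, which limits the precision of their values.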
